A study of Mus musculus with 11 samples.

Results

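The class I antigen presentation pathway is described here through 10 genes in the lungs of Foxa3 knockout and control mice. They are Ubd, the immunoproteasome subunits Psmb8, Psmb9 and Psmb10, the peptide transporter genes Tap1 and Tap2, the loading factor Tapbp, the class I light chain B2m and the classical heavy chains H2-K1 and H2-D1. The 10 genes were taken by name among 21872 genes measured, and 17 of the 41174 probes on the array carry one of these names. All 17 passed the filter on dim probes, which asked for a signal well above background on 2 or more of the 11 arrays. The other 9 were selected for their place in the pathway. Ubd was chosen by its measured level, for its large rise with ovalbumin in these lungs, so its ovalbumin values are a description without a test.

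The lungs belonged to 4 groups. Foxa3 knockout (KO) mice challenged with OVA gave 3 arrays, littermate controls challenged with OVA gave 3, KO mice given saline gave 2 and littermate controls given saline gave 3. The controls are called wild type (WT). OVA is ovalbumin, an egg protein used to provoke allergic airway inflammation in sensitised mice. Foxa3 codes for a forkhead transcription factor. The strain, the MHC haplotype, the animals' age, the dosing scheme and the deleted part of Foxa3 are not given in the sources used here. The labels do not say that each array is 1 animal, so p-values measure the spread between these samples, which may be technical. Whole lung RNA was hybridised, and such bulk samples cannot tell fewer cells of a type from less RNA per cell.

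Cells cut their own proteins in the proteasome and show the fragments to CD8 T cells. Interferon gamma induces Psmb8, Psmb9 and Psmb10, which take the places of the 3 catalytic subunits of the standard 20S core. Tap1 and Tap2 form the pump that moves the peptides into the endoplasmic reticulum, where Tapbp (tapasin) bridges the pump to an empty class I molecule made of B2m and a heavy chain. Ubd, also called FAT10, is a ubiquitin-like protein that sends its targets to the proteasome and is induced by interferon gamma together with TNF. Its gene lies near the MHC.

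Levels are log2 intensities minus the 75th percentile of the same array, so 0 marks that percentile, and a difference of 1 is a doubling. They can be compared between arrays for 1 gene and not between genes. Between 71.74% and 79.3% of the spots on each array were well above background. Foxa3 itself was well above background on 0 of 5 KO arrays and on 6 of 6 WT arrays, with levels of -9.07 to -7.62 in KO OVA, -4.00 to -3.89 in WT OVA, -8.62 and -8.45 in KO saline and -6.08 to -5.87 in WT saline. The arrays lay on 3 slides. Slides 1 and 2 held 1 array of each group, and slide 3 lacked KO saline. The second principal component over all genes (15.8% of the variance) set the 4 arrays of slide 1 apart at -41.9 to -33.8, against 16.3 to 29.2 on the others. On the third (10.4%) WT OVA 1 stood apart at 66.9, with the others between -21.0 and 8.47. Differences within slides are therefore given beside the pooled ones.

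The promoters of the members are shown because the genes moved together with OVA and because interferon and NF-kappa-B responses are read from short elements there. Sequences are RefSeq's on GRCm38.p6, 5′ to 3′ on the strand named. The 250 bases before the start of 9 members were searched on both strands for 3 cores. That of the interferon-stimulated response element (ISRE) is GAAA, 2 bases of any kind and GAAA, that of the gamma-activated site (GAS) is TTC, 3 bases of any kind and GAA, and that of NF-kappa-B sites is GGG, 5 bases of any kind and CC. The last reads differently on the other strand, so its matches may overlap. Tap2 has no entry in the promoter table. Capitals mark the matches. H2-K1 and H2-D1 are shown side by side from chr17:34000405-34000494 (minus strand, 147 to 58 bases before the start) and chr17:35262887-35262976 (plus strand, 207 to 118 bases before it).
H2-K1: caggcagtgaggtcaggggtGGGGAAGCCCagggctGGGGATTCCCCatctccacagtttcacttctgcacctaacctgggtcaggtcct
H2-D1: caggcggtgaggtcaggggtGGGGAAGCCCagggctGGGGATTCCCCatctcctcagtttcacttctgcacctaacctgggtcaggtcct
Aligned over 190 bases before their starts, the promoters of both heavy chains were the same at 166 positions (87.4%), and the longest shared run was 47 bases. Both hold the block GGGGATTCCCC, in which 2 overlapping NF-kappa-B cores match on each strand. The B2m segment lies at chr2:122147527-122147596 (plus strand, 160 to 91 bases before the start). It holds an ISRE core followed by a pair of overlapping NF-kappa-B cores.
B2m: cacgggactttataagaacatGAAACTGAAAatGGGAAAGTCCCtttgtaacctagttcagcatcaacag
The Ubd segment is chr17:37193792-37193891 (plus strand, the 100 bases before the start), with 1 NF-kappa-B core.
Ubd: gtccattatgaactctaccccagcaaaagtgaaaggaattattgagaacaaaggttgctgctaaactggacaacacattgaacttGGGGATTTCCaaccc
Psmb8 is shown from chr17:34198065-34198134 (plus strand, 130 to 61 bases before the start) for its GAS core.
Psmb8: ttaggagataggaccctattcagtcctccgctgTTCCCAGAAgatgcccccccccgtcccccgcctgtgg
Tap1 and Psmb9 are read in opposite directions from starts that lie 225 bases apart, and the stretch between them, chr17:34187331-34187555, is given on the strand of Tap1 with its NF-kappa-B cores in capitals.
Tap1-Psmb9: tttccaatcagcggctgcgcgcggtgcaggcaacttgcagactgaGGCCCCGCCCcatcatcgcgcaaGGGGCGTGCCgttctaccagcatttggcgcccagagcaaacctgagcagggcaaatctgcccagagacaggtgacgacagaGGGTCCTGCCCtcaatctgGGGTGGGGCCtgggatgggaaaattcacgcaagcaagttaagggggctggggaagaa

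**Figure D1:**
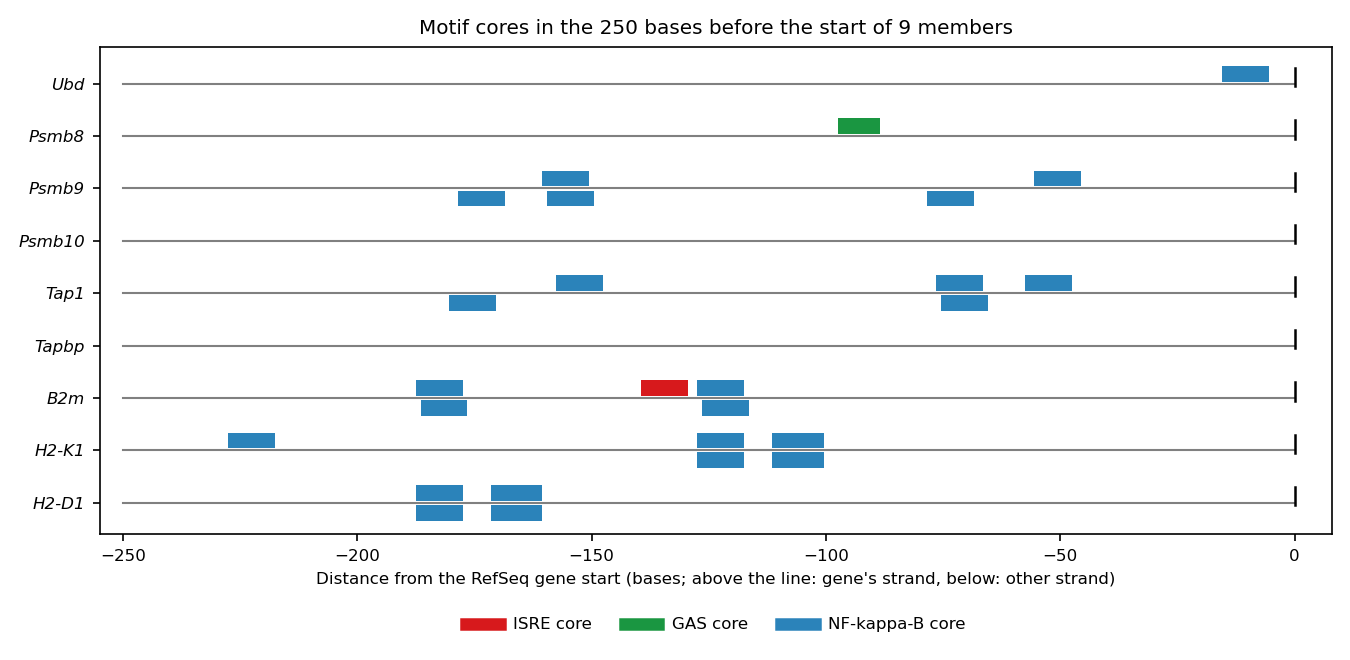
Matches to the 3 motif cores in the 250 bases before the RefSeq start of 9 members, by distance from the start in bases, with the gene's strand above each line and the other strand below. The ISRE core is at B2m and the GAS core at Psmb8, and Psmb10 and Tapbp have none of the 3.

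An ISRE core of these letters was found in 1 of the 9 member promoters (B2m) and in 2.98% of 32851 promoters of the same length. The GAS core was found in 1 of 9 (Psmb8), against 7.02% of all, and the NF-kappa-B core in 6 of 9 (Ubd, Psmb9, Tap1, B2m, H2-K1 and H2-D1), against 45.8% of all. The windows of Tap1 and Psmb9 are largely the same DNA and are not separate examples. Those of H2-K1 and H2-D1 are near copies (87.4% the same over 190 bases) and are not separate examples either. A match describes the letters only. An element that departs from these letters was not searched for, so a promoter without a match may still hold one.

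Ubd was near background after saline and, on average, close to the array's 75th percentile after OVA, in both genotypes. Its single probe (mm7 chr17:35348129-35348188) read 0.48, -0.69 and 1.88 in KO OVA 1 to 3 and -0.51, 1.17 and 0.98 in WT OVA 1 to 3. It read -6.80 and -6.18 in KO saline and -5.41, -6.24 and -6.25 in WT saline. Every OVA array lay more than 4 log2 units above every saline array, and KO and WT arrays overlapped after OVA and after saline. The probe was well above background on all arrays but KO saline 1.

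The mean of Ubd was 0.56 ± 1.28 in KO OVA and -6.49 ± 0.44 in KO saline (SD, n = 3 and 2), a log2 difference of 7.05 ± 0.73 (SE). The KO saline mean rests on 2 arrays, of which 1 was well above background. In WT it was 0.55 ± 0.92 after OVA and -5.96 ± 0.48 after saline (SD, n = 3 each), a difference of 6.51 ± 0.65 (SE). The saline values sit at the low end of the intensity range, and the size of the difference depended on the background handling. With normexp background correction it was 4.52 in KO and 3.58 in WT, and the same correction without a few spots of far brighter local background gave 4.52 and 4.61. In the authors' deposited value table it was 4.7 in KO and 4.57 in WT. Within slides 1 and 2 the KO difference was 6.66 and 8.68, and within slides 1 to 3 the WT difference was 6.38, 5.73 and 7.42.

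Ubd did not pass the test between genotypes. The KO minus WT difference after OVA was 0.01 ± 0.65 (SE, adjusted p = 1 by limma over all genes) and within slides 1, 2 and 3 it was -0.49, 2.39 and -1.86. After saline it was -0.52 ± 0.73 (adjusted p = 1). Each standard error was larger than its difference, so the arrays did not resolve a genotype difference for this gene. The OVA effect in KO minus that in WT, given without a test, was 0.54 ± 0.98 (SE).

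**Figure D2:**
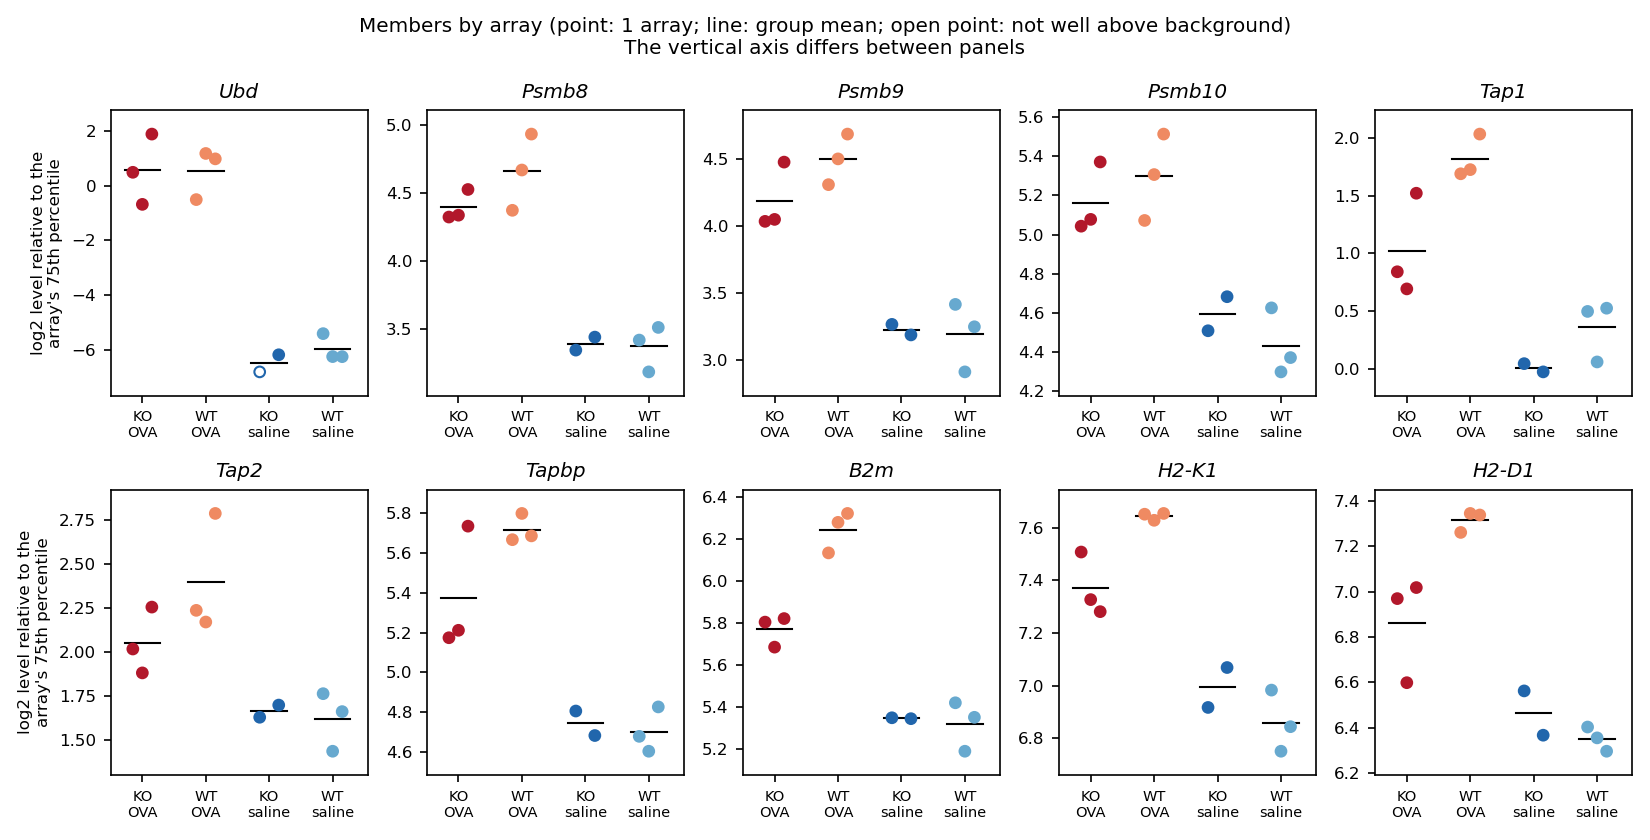
Level of each of the 10 members on each of 11 arrays (log2 relative to the array's 75th percentile), by group, with group means as lines. All OVA arrays lie above all saline arrays of the same genotype for every member, and WT OVA lies above KO OVA without overlap for Tap1, B2m, H2-K1 and H2-D1.

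The other 9 members were all higher after OVA in both genotypes. In KO 4 of the 9 rose at an adjusted p under 0.05, B2m, Psmb8, Psmb9 and Tap1 (6.45% of all genes were called higher), and the fitted changes of the 9 ran from 1.30-fold to 2.01-fold. In WT all 9 rose (9 of 9 called, where 10.9% of all genes were called higher), by 1.72-fold to 2.74-fold. The median log2 difference of the 9 was 0.57 in KO and 0.96 in WT, against -0.00845 and 0.017 over all genes. OVA and saline arrays did not overlap for any of the 9 in either genotype, a pattern that 24.5% of all genes showed upward in KO and 22.2% in WT. The genes were picked with these comparisons known, so the shares are descriptions. Within each slide all 9 were higher after OVA, by 0.32 to 0.88 on slide 1 and 0.36 to 1.47 on slide 2 in KO, and by 0.67 to 1.53, 0.77 to 1.63 and 0.51 to 1.26 on slides 1 to 3 in WT, where 49.5% to 54.2% of all genes were higher. With slide as a block in the fit, 1 of the 9 was called in KO, Psmb8, and 9 in WT.

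The count in KO rested on few arrays. It was 0 without KO saline 1 and 0 without KO saline 2, the only 2 arrays of that group, 1 without KO OVA 3, 2 without KO OVA 1, WT OVA 3 or any 1 of the 3 WT saline arrays, 3 without WT OVA 2, 5 without WT OVA 1 and 6 without KO OVA 2. The count in WT was 8 or 9 whichever array was left out. Without the 4 arrays of slide 1 none of the 9 passed in either genotype, and the log2 differences then ran from 0.66 to 1.41 in WT.

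**Figure D3:**
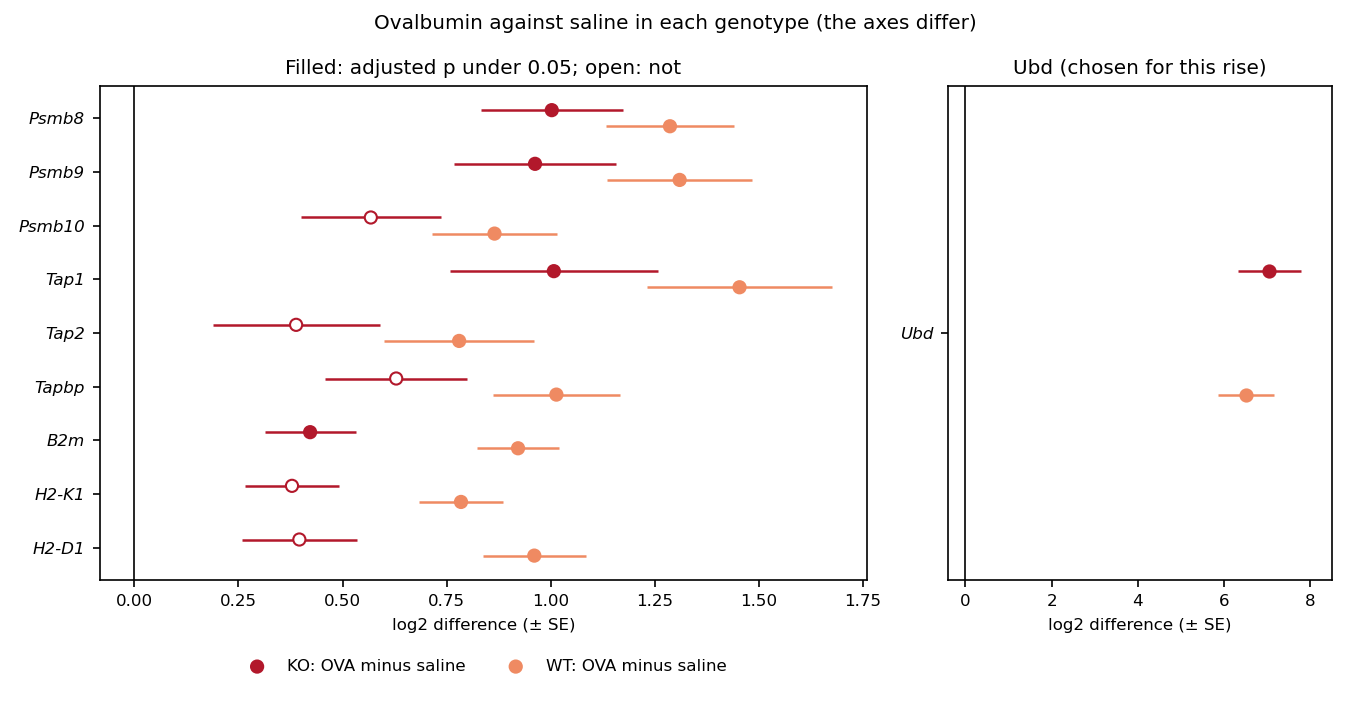
OVA minus saline (log2 difference ± SE) for each member in KO (dark) and WT (light), filled where the adjusted p is under 0.05, with Ubd on an axis of its own and without a test. Each of the 9 is to the right of 0 in both genotypes, and its KO point lies left of its WT point.

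Among the immunoproteasome subunits, Psmb8 (LMP7), which cuts after hydrophobic residues, read 4.33, 4.34 and 4.53 in KO OVA and 4.38, 4.67 and 4.94 in WT OVA. After saline it read 3.35 and 3.44 in KO and 3.42, 3.19 and 3.51 in WT. The rise was 1.00 ± 0.17 (SE, adjusted p = 0.0116) in KO and 1.29 ± 0.15 (SE, adjusted p = 0.0024) in WT, both from limma over all genes. Each OVA array was above each saline array, and the 2 genotypes overlapped. The KO call was lost without KO saline 1 or KO saline 2 (adjusted p = 0.11 and 0.0669). Within slides the difference was 0.88 and 1.18 in KO (slides 1 and 2) and 1.51, 1.19 and 1.16 in WT (slides 1 to 3). A second Psmb8 probe gave 0.95 in KO and 1.35 in WT.

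Psmb9 (LMP2), the subunit that takes the place of Psmb6, read 4.03, 4.05 and 4.48 in KO OVA and 4.31, 4.50 and 4.69 in WT OVA. Its saline levels were 3.26 and 3.18 in KO and 3.41, 2.91 and 3.25 in WT. It rose by 0.96 ± 0.19 (SE, limma adjusted p = 0.0224) in KO and by 1.31 ± 0.17 (adjusted p = 0.00332) in WT. Here too the genotypes overlapped under both challenges, and without KO saline 1, KO saline 2 or KO OVA 3 the KO call was lost (adjusted p = 0.132, 0.133 and 0.066). With a slide block its limma adjusted p in KO was 0.0588, and the KO differences within slides 1 and 2 were 0.85 and 1.21, beside 1.27, 1.40 and 1.26 in WT within slides 1 to 3.

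Psmb10 (MECL-1), the third exchangeable subunit, is coded on chromosome 8 (probe at mm7 chr8:104534632-104534691), away from the MHC. It read 5.04, 5.08 and 5.37 in KO OVA and 5.07, 5.31 and 5.51 in WT OVA, with 4.51 and 4.68 in KO saline and 4.63, 4.30 and 4.37 in WT saline. The difference in KO was 0.57 ± 0.17 (SE, limma adjusted p = 0.0684), and the rise in WT was 0.87 ± 0.15 (adjusted p = 0.0089). Of the 3 subunits it had the smallest difference in both genotypes. In KO it was 0.36 within slide 1 and 0.86 within slide 2, and in WT 0.89, 0.77 and 0.93 within slides 1 to 3.

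The standard 20S subunits that these 3 replace had smaller differences. Psmb5, Psmb6 and Psmb7, named for that relation after their values were seen, differed by 0.43, 0.37 and 0.27 in KO and by 0.43, 0.44 and 0.24 in WT, and only Psmb6 passed in WT (limma adjusted p = 0.0398). Of the 14 standard 20S subunits, 0 passed in KO (median difference 0.30) and 6 rose in WT (median 0.41), among them Psmb1 by 0.45, Psma7 by 0.57 and Psmb3 by 0.35. The WT count was 0 without WT saline 2, WT saline 3, WT OVA 2 or WT OVA 3, and 12 without WT OVA 1. For the 20 subunits of the 19S cap it was 0 in KO and 2 in WT (Psmd2 by 0.44 and Psmd14 by 0.37), and the WT count was 0 without any 1 of 8 arrays and 5 without WT OVA 1.

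Of 8 activator and assembly genes measured, Psme1, a subunit of the interferon-induced PA28 activator, rose by 0.66 ± 0.13 (SE, adjusted p = 0.0232) in KO and by 0.96 ± 0.12 (adjusted p = 0.00281) in WT, by limma. Pomp, which helps to assemble the immunoproteasome, rose by 0.47 in WT. Without KO saline 1, KO saline 2, KO OVA 1 or KO OVA 3, Psme1 did not pass in KO, and without KO OVA 2 the KO count was 2. The WT count was 1 in place of 2 without any 1 of the WT saline arrays, WT OVA 2 or WT OVA 3.

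Tap1, the first subunit of the transporter, had the largest fitted difference of the 9 in WT and, with Psmb8, in KO. Its probe (mm7 chr17:32273751-32273810) read 0.84, 0.69 and 1.52 in KO OVA and 1.69, 1.72 and 2.03 in WT OVA. In saline lungs it read 0.05 and -0.03 in KO and 0.50, 0.06 and 0.53 in WT. KO arrays lay below WT arrays without overlap under both challenges, and KO OVA 3 was the highest KO array. The difference with OVA was 1.01 ± 0.25 (SE, adjusted p = 0.0432) in KO and 1.45 ± 0.22 (adjusted p = 0.00547) in WT, by limma. Leaving out any array other than WT OVA 1, WT OVA 2 or KO OVA 2 ended the KO call, with adjusted p of 0.0551 to 0.194, as did a slide block (adjusted p = 0.0852). The KO difference was 0.87 within slide 1 and 1.47 within slide 2, and the WT difference was 1.53, 1.63 and 1.2 within slides 1 to 3.

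Tap2, the second subunit, changed less than its partner. It read 2.02, 1.88 and 2.26 in KO OVA and 2.24, 2.17 and 2.79 in WT OVA, against 1.63 and 1.70 in KO saline and 1.76, 1.43 and 1.66 in WT saline. The difference in KO was 0.39 ± 0.20 (SE, limma adjusted p = 0.227), and the rise in WT was 0.78 ± 0.18 (adjusted p = 0.0224). The WT call was lost without WT saline 2, WT saline 3 or WT OVA 3 (adjusted p = 0.0819, 0.0555 and 0.0613). Within slides 1 and 2 the KO difference was 0.32 and 0.63, and within slides 1 to 3 the WT difference was 1.03, 0.80 and 0.51.

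Tapbp read 5.17, 5.21 and 5.73 in KO OVA and 5.67, 5.80 and 5.69 in WT OVA, while saline lungs gave 4.81 and 4.68 in KO and 4.68, 4.60 and 4.83 in WT. The KO difference of 0.63 ± 0.17 (SE) had a limma adjusted p of 0.0549, and in WT it rose by 1.01 ± 0.15 (adjusted p = 0.00496). KO OVA 3 lay within the WT OVA range, and the other KO OVA arrays lay below it. The difference was 0.49 and 0.93 in KO within slides 1 and 2, and 1.01, 1.06 and 0.97 in WT within slides 1 to 3. A second, dimmer Tapbp probe read 0.41, 0.31 and 0.97 in KO OVA and 1.21, 1.36 and 1.15 in WT OVA, so that there the genotypes did not overlap. It gave an OVA difference of 0.10 in KO and 0.66 in WT, and the 2 probes thus disagree about KO.

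Among 10 further loading and trimming genes, Lap3, a cytosolic aminopeptidase, rose by 1.07 ± 0.16 (SE, limma adjusted p = 0.00664) in KO and by 1.06 ± 0.14 (adjusted p = 0.0033) in WT. Erap1, the trimming peptidase of the endoplasmic reticulum, rose by 0.53 in WT, and Tapbpl, a peptide editor related to tapasin, by 0.43. In all 1 gene rose in KO and 4 in WT. The KO count was 0 without either KO saline array and 3 without KO OVA 2 or WT OVA 1. The WT count was 1 without WT saline 2, WT saline 3, WT OVA 2 or WT OVA 3.

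B2m, the light chain shared by all class I molecules, had the smallest standard errors of the members. Its brightest probe (mm7 chr2:121893518-121893577) read 5.80, 5.69 and 5.82 in KO OVA and 6.13, 6.28 and 6.32 in WT OVA. In saline lungs it read 5.35 and 5.35 in KO and 5.42, 5.19 and 5.35 in WT. All KO OVA arrays thus lay between the saline arrays and the WT OVA arrays.

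The rise of B2m was 0.42 ± 0.11 (SE, limma adjusted p = 0.0486) in KO and 0.92 ± 0.10 (adjusted p = 0.0015) in WT. The KO call stood so near the threshold that leaving out any array other than WT OVA 1 or KO OVA 2 ended it, with adjusted p up to 0.211, and a slide block ended it too (adjusted p = 0.0898). The differences within slides were alike, at 0.46 and 0.47 in KO (slides 1 and 2) and 0.90, 0.94 and 0.93 in WT (slides 1 to 3). A second B2m probe in 10 spots gave 0.45 in KO and 0.97 in WT, and a clone probe gave 0.45 and 0.86 with no value on WT OVA 1.

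H2-K1, a classical heavy chain that shows peptides to CD8 T cells, was measured in 10 spots with its brightest probe (mm7 chr17:32074445-32074504). It read 7.51, 7.33 and 7.28 in KO OVA and 7.65, 7.63 and 7.65 in WT OVA, against 6.92 and 7.07 in KO saline and 6.98, 6.75 and 6.84 in WT saline. The KO difference was 0.38 ± 0.11 (SE, limma adjusted p = 0.0695), and the rise in WT was 0.78 ± 0.10 (adjusted p = 0.00307). The 3 WT OVA arrays differed by less than 0.03, and all lay above the KO OVA arrays. Within slides the difference was 0.44 and 0.36 in KO and 0.67, 0.90 and 0.78 in WT. The other 2 H2-K1 probes gave larger differences, 0.57 and 0.79 in KO and 1.16 and 1.32 in WT.

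H2-D1, the other classical heavy chain described here, read 6.97, 6.60 and 7.02 in KO OVA and 7.26, 7.34 and 7.34 in WT OVA. After saline it read 6.56 and 6.37 in KO and 6.40, 6.36 and 6.30 in WT. The KO difference of 0.40 ± 0.14 (SE) had a limma adjusted p of 0.0978, and in WT it rose by 0.96 ± 0.12 (adjusted p = 0.00307). The groups fell in the order KO saline and WT saline together, then KO OVA, then WT OVA, and KO OVA 2 was close to the saline arrays. Slides 1 and 2 gave KO differences of 0.60 and 0.45, and slides 1 to 3 gave WT differences of 0.93, 0.90 and 1.05.

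Class I genes are near copies of one another, and the array cannot fully separate them. The H2-D1 probe is listed by the array's annotation for 3 RefSeq transcripts, and it is shown here for that reason. It spans chr17:33361850-33362082 on mm7, plus strand, across an intron.
H2-D1 probe: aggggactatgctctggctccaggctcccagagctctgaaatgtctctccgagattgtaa
The H2-K1 probe shared 49 of 57 aligned bases with a probe that the array names LOC56628, also a class I sequence. Another probe that the array names H2-D1 carries the accession of a different class I antigen. It was near background, between -8.63 and -3.66, with overlapping groups. Its inclusion turns the H2-D1 value in WT to -0.27 when the probes of a gene are averaged.

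Other class I genes of the MHC were also higher after OVA. Of 12 other heavy chain genes of the MHC measured, 4 rose in KO (median difference 0.51) and 11 rose in WT (median 0.96). In KO H2-Q8 rose by 1.67 ± 0.37 (SE, limma adjusted p = 0.031), H2-Q1 by 0.47 and H2-Q5 by 0.57. In WT H2-Q1 rose by 0.97 ± 0.09, H2-T23, which codes for the Qa-1 ligand of NK cell receptors, by 0.96 ± 0.10, and H2-Q5 by 1.03 ± 0.12 (SE, limma adjusted p = 0.00122, 0.00127 and 0.00218). The KO count was 0 without WT saline 3, WT OVA 3, KO OVA 1, KO OVA 3 or either KO saline array and 9 without KO OVA 2. The WT count was 11 whichever array was left out. Cross-hybridisation between these copies was not tested.

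Class I-like genes coded elsewhere in the genome were mostly near 0. Of 6 measured, Hfe, a regulator of iron uptake, rose by 0.75 in WT. Azgp1 fell by 1.70 ± 0.36 in KO and by 1.40 ± 0.32 in WT (SE, limma adjusted p = 0.0263 and 0.0222). The list median was -0.16 in KO and -0.09 in WT. Without KO OVA 1, KO OVA 3 or either KO saline array none passed in KO, and without WT saline 2, WT saline 3, WT OVA 2 or WT OVA 3 none passed in WT.

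**Figure D4:**
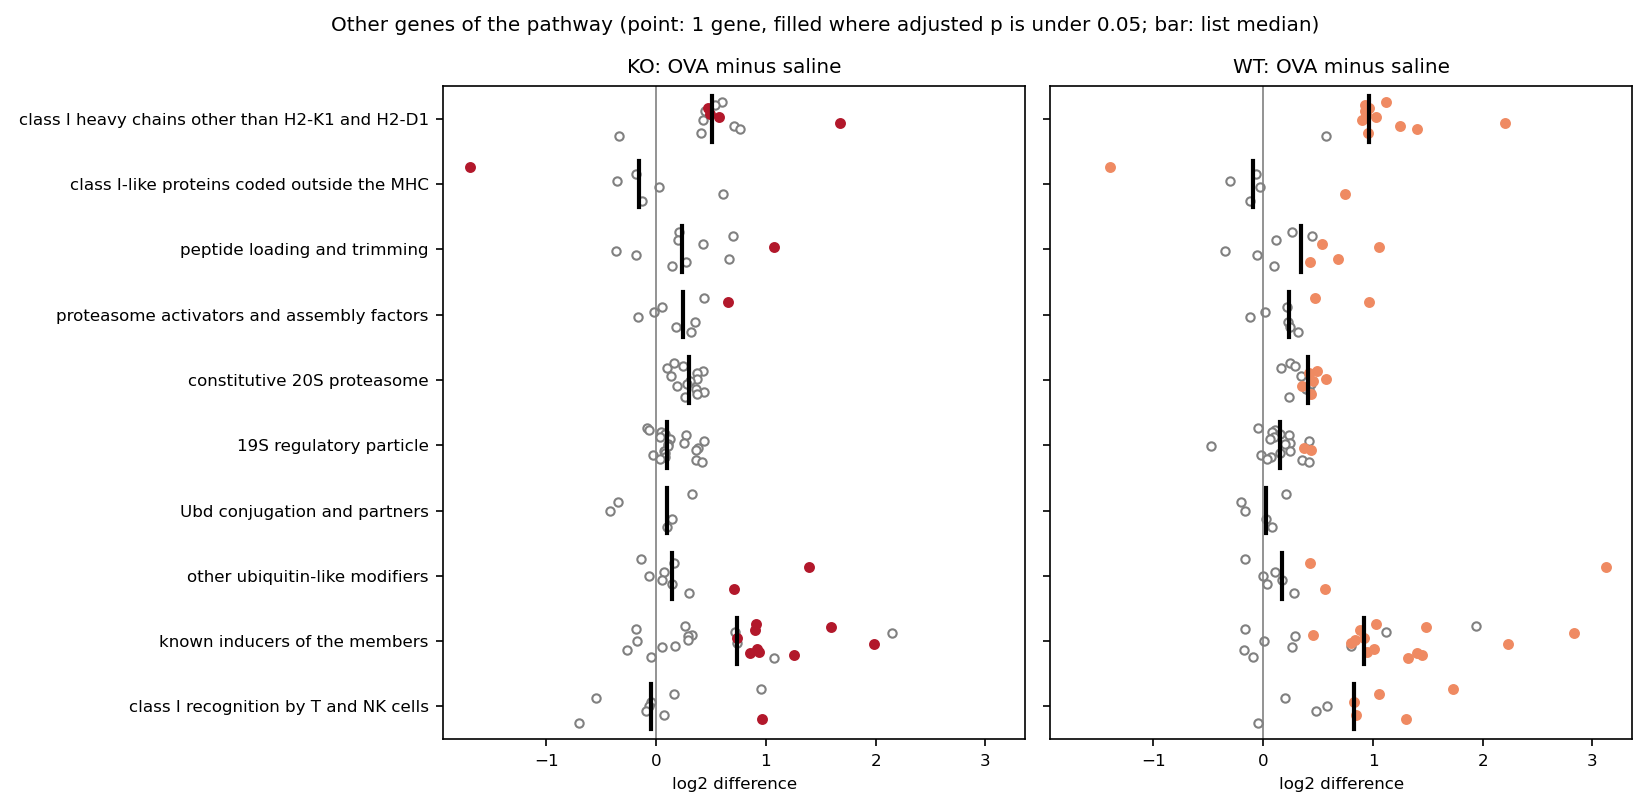
OVA minus saline (log2 difference) in KO and WT for the genes of 10 lists around the class I pathway, 1 point per gene, filled where the adjusted p is under 0.05, with the list median as a bar. The other heavy chains lie to the right of 0 in both panels except 1 gene in KO, and the 5 genes around Ubd conjugation lie near 0.

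None of the known partners of Ubd passed the test. Of 5 genes for its conjugation and delivery, among them the activating enzyme Uba6 (0.15 in KO, 0.03 in WT) and the conjugating enzyme Ube2z (0.10 in KO, 0.08 in WT), 0 passed in either genotype. Leaving out KO OVA 2 gave 1 call in KO. Of 9 other ubiquitin-like modifiers, Isg15, which is induced by type I interferon, had the largest difference. It read 2.07, 1.43 and 2.01 in KO OVA and 3.05, 3.27 and 4.24 in WT OVA, with 0.51 and 0.38 in KO saline and 0.52, 0.16 and 0.53 in WT saline. It rose by 1.39 ± 0.34 (SE, limma adjusted p = 0.0399) in KO and by 3.12 ± 0.30 (adjusted p = 0.00122) in WT. KO OVA lay below WT OVA without overlap, and that difference of -1.69 ± 0.30 had an adjusted p of 0.0937. Of these modifiers 2 rose in KO and 3 in WT, with 0 in KO without any 1 of the saline arrays, KO OVA 1 or KO OVA 3, and 1 in WT without WT saline 2 or WT OVA 2.

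Genes known to induce the members also rose with OVA, 9 of 23 measured in KO and 14 in WT, with median differences of 0.74 and 0.91. The counts were 0 in KO without either KO saline array and 8 in WT without WT OVA 3. Nlrc5, the class I transactivator, was not measured. Ifng read -0.73, -0.98 and -0.74 in KO OVA and -0.87, -0.81 and -0.29 in WT OVA, against -2.47 and -2.36 in KO saline and -3.05, -1.33 and -2.04 in WT saline. It rose by 1.60 ± 0.41 (SE, limma adjusted p = 0.048) in KO and by 1.48 ± 0.37 (adjusted p = 0.028) in WT, with overlapping genotypes.

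Tnf rose by 1.25 ± 0.29 (SE, limma adjusted p = 0.0355) in KO and by 1.45 ± 0.26 (adjusted p = 0.01) in WT. Irf1, which binds the ISRE, differed by 0.33 ± 0.11 (SE, limma adjusted p = 0.0892) in KO and rose by 0.45 ± 0.10 (adjusted p = 0.0184) in WT.

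Between genotypes after OVA, the fitted differences (KO minus WT) of the 9 members other than Ubd were below 0, but no member passed the test. Of the 10 members 0 were called (0.21% of all genes were called in either direction). The 9 members other than Ubd were all lower in KO, with differences of -0.80 to -0.13 (median -0.34, against 0.0134 over all genes, of which 47% were lower). The smallest limma adjusted p among them was 0.156, for B2m. Before adjustment 4 of the 10 had a p under 0.05 (Tap1, B2m, H2-K1 and H2-D1), as did 1093 of all genes.

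**Figure D5:**
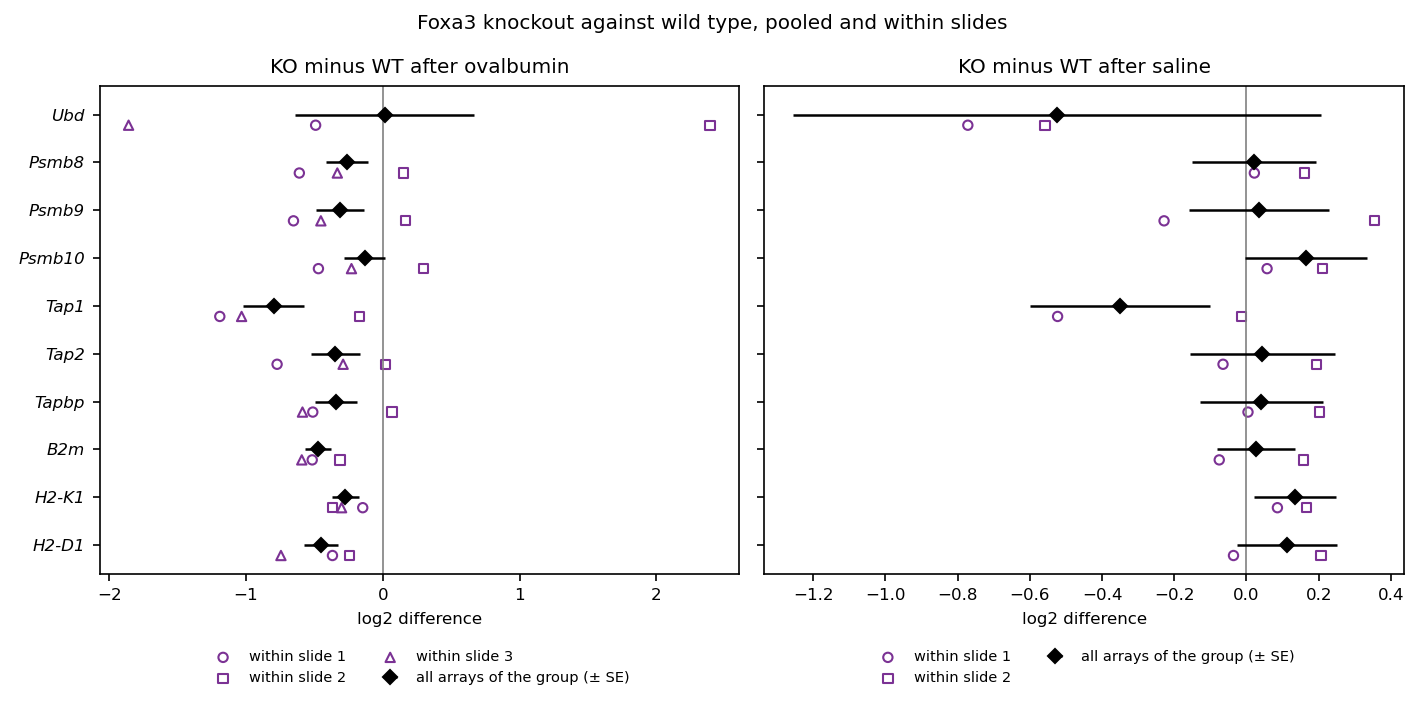
KO minus WT (log2 difference) for each member after OVA and after saline, pooled over arrays with its SE (diamond) and within each slide (open symbols). After OVA the 9 members other than Ubd lie left of 0, and within slide 2 only Tap1, B2m, H2-K1 and H2-D1 do.

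With the brightest probe of each gene, KO and WT arrays did not overlap for 4 of the 10, all lower in KO. Of all genes, 4.56% had KO arrays below WT arrays. B2m averaged 5.77 ± 0.07 in KO OVA and 6.24 ± 0.10 in WT OVA (SD, n = 3 each), a difference of -0.47 ± 0.10 (SE, limma adjusted p = 0.156). It was -0.52, -0.31 and -0.59 within slides 1, 2 and 3. A fit with a trended robust prior called B2m at an adjusted p of 0.0454, and no other setting did. H2-D1 averaged 6.86 ± 0.23 in KO OVA and 7.31 ± 0.05 in WT OVA, and differed by -0.45 ± 0.12 (SE, limma adjusted p = 0.428), with -0.37, -0.24 and -0.74 within the 3 slides.

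H2-K1 averaged 7.37 ± 0.12 in KO OVA and 7.64 ± 0.01 in WT OVA (SD, n = 3 each), with a difference of -0.27 ± 0.10 (SE, limma adjusted p = 0.832) and within-slide values of -0.15, -0.37 and -0.30. The other 2 H2-K1 probes gave larger differences, -0.61 ± 0.15 and -0.57 ± 0.17 (SE), also without overlap. They did not pass either (limma adjusted p = 0.323 and 0.575 over all probes). Tap1 averaged 1.02 ± 0.44 in KO OVA and 1.82 ± 0.19 in WT OVA. Its difference of -0.80 ± 0.22 (SE, limma adjusted p = 0.454) was -1.19, -0.17 and -1.03 within the slides. By the brightest probe of each gene, these 4 are the members that were lower in KO on all 3 slides.

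By the same choice of probe, the remaining members depended on the slide. Within slide 1 and within slide 3 all 10 members were lower in KO (48.8% and 50.6% of all genes were), and within slide 2, which holds KO OVA 3 and WT OVA 1, 4 were lower and 6 higher (51.1% of all genes were lower). Psmb8 differed by -0.26 ± 0.15, Psmb9 by -0.31 ± 0.17 and Psmb10 by -0.13 ± 0.15 (SE, limma adjusted p = 1 for each). Tap2 differed by -0.35 ± 0.18 (adjusted p = 1) and Tapbp by -0.34 ± 0.15 (adjusted p = 0.995). The second, dimmer Tapbp probe differed by -0.68 ± 0.17 (SE, limma adjusted p = 0.342 over all probes) and was lower in KO on each slide. On slides 1, 2 and 3 it read 0.41, 0.97 and 0.31 in KO OVA and 1.15, 1.21 and 1.36 in WT OVA.

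After saline the genotypes were close. Again 0 of 10 members were called by limma (0.096% of all genes were), and 0 had an unadjusted p under 0.05. Differences ran from -0.35 for Tap1 to 0.16 for Psmb10 among the 9, with a median of 0.04, and that of Ubd was -0.52. Tap1 was the only member whose KO saline arrays lay below all WT saline arrays, with -0.52 and -0.01 within slides 1 and 2. With 2 KO arrays, 10.6% of all genes had KO arrays below WT arrays.

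The difference of the OVA effects, KO minus WT, was negative for all 9 members other than Ubd, from -0.56 for H2-D1 to -0.28 for Psmb8, as it was for 50.2% of all genes. None of the 9 passed (0.00457% of all genes did), and the limma adjusted p was 1 for each. Before adjustment 3 of the 9 had a p under 0.05 (B2m, H2-K1 and H2-D1), as did 566 of all genes. For B2m it was -0.50 ± 0.15 (SE), with -0.44 and -0.47 within slides 1 and 2. For Psmb10 it was -0.30 ± 0.23, with -0.53 and 0.09. A smaller number of calls in KO than in WT is therefore not shown to be a smaller effect, and KO saline also holds 1 array fewer than the other groups.

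In the lists around the pathway, Irf9 was the single gene called between genotypes after OVA. A subunit of the factor that binds ISRE elements, it read 1.69, 1.72 and 1.77 in KO OVA and 2.39, 2.32 and 2.43 in WT OVA, and differed by -0.65 ± 0.09 (SE, limma adjusted p = 0.0357). Leaving out any 1 array ended this call. H2-T24 differed by -1.03 ± 0.19 (adjusted p = 0.096), a gene named after its value was seen. All 12 other heavy chain genes were lower in KO OVA than in WT OVA, with a median of -0.47 and 0 called. So were all 9 genes listed for the recognition of class I (median -0.51, 0 called) and 18 of 23 inducers (median -0.16). Other lists were split, with 5 of 10 loading and trimming genes and 7 of 14 standard 20S subunits lower.

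Several marker lists lay on 1 side of 0 in the same comparison, with 0 called in each. All 5 cardiac muscle markers were lower in KO OVA than in WT OVA, and all 5 neutrophil and all 5 ciliated cell markers were higher. Lymphocyte markers differed between lists. Of 8 natural killer cell markers all 8 were lower in KO OVA than in WT OVA (median -0.62, 0 called), and their summed level was 5.36 to 7.32 in KO OVA, 8.21 to 10.3 in WT OVA, 6.42 to 7.57 in KO saline and 5.11 to 8.57 in WT saline, in units of the array's 75th percentile. All 7 B cell markers were also lower (median -0.65, 0 called), with sums of 12.7 to 13.6 in KO OVA, 18.7 to 23.3 in WT OVA, 10.5 to 18.3 in KO saline and 6.49 to 18.9 in WT saline. The T cell sum did not separate the genotypes after OVA, at 14.8 to 20.3 in KO and 14.9 to 20.4 in WT. None of these markers was below background throughout a group. The part of these cells in the class I differences was not tested.

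With OVA 6 of 9 macrophage markers rose in KO and 8 of 9 in WT (0 in KO without KO saline 1, and 5 in WT without any 1 WT saline array, WT OVA 2 or WT OVA 3), and their sum was 68.6 to 112 in KO OVA, 71.2 to 130 in WT OVA, 30.3 to 30.4 in KO saline and 25.0 to 31.5 in WT saline. Of 4 eosinophil markers measured, 2 rose and 1 fell in each genotype (median 2.025 in KO and 1.832 in WT). Without KO saline 1, 0 of them were called in KO. Without WT saline 1, WT saline 3, WT OVA 2 or WT OVA 3, 2 were called in WT. T cell markers rose for 1 of 11 in KO and 9 of 11 in WT (0 in KO without any 1 of 7 arrays, and 3 in WT without WT OVA 2 or WT OVA 3), with sums of 10.3 to 12.0 in KO saline and 5.28 to 10.3 in WT saline beside those above. All 11 were above 0 with OVA in both genotypes (median 0.559 in KO and 1.185 in WT). All 11 were also higher in KO saline than in WT saline (median 0.556, 0 called). Of 9 genes listed for the recognition of class I by immune cells, 4 were above 0 in KO (median -0.045) and 8 in WT (median 0.83). In KO 1 rose, the inhibitory receptor gene Pirb by 0.97, and 5 rose in WT, among them Pirb by 1.31, Cd8a by 1.73 and Klrk1 by 0.85. That count was 0 in KO without any 1 of 7 arrays, and 2 in WT without WT saline 1, WT saline 2 or WT OVA 3.

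Some markers of dendritic cells and of resident cells also passed with OVA, but not of every resident type. Of 6 alveolar type II markers 0 passed in KO and 1 fell in WT, and of 3 club and 5 ciliated cell markers 0 passed in either genotype. All 3 club markers were below 0 in KO (median -0.96), and 2 were in WT (median -0.58). The club sum was lower after OVA without overlap in KO, at 269 to 404.1 against 541.9 to 602.1. In WT it overlapped, at 286.6 to 543.8 against 467.4 to 513.3. The type II sum was higher after OVA without overlap in WT, at 549.6 to 697.1 against 468.5 to 509.2. In KO it overlapped, at 544.4 to 616.6 against 582.8 to 667.2. With 1 array left out, at most 2 type II, 2 club and 1 ciliated cell markers passed. Of 8 dendritic cell markers 3 rose in KO and 4 in WT, among them Cd83 and Itgax in both. Of the 8, 3 were below 0 in KO (median 0.09) and 2 in WT (median 0.39). The sums were 20.1 to 32.4 in KO OVA, 19.1 to 34.5 in WT OVA, 8.16 to 8.45 in KO saline and 8.70 to 10.1 in WT saline. The counts called were 1 in KO without either KO saline array and 1 in WT without WT saline 2 or WT OVA 3. Of 6 endothelial markers 1 fell in KO and 4 fell in WT, with sums of 73.2 to 87.7 in KO OVA, 71.1 to 103.5 in WT OVA, 113.4 to 115.9 in KO saline and 101.5 to 133.2 in WT saline. None passed in KO without either KO saline array, KO OVA 1, KO OVA 3 or WT saline 2, nor in WT without WT OVA 2 or WT OVA 3. Of 5 fibroblast markers 2 rose in KO, and 2 rose and 1 fell in WT (0 called in KO without KO saline 1 or KO OVA 3, and 1 in WT without any 1 WT saline array, WT OVA 2 or WT OVA 3). In KO 2 of the 5 were below 0 (median 0.23), and in WT 3 were (median -0.27). Their summed levels, in which the brightest markers weigh most, were nevertheless higher after OVA without overlap. They were 87.6 to 114.0 in KO OVA, 108.2 to 136.5 in WT OVA, 64.5 to 69.9 in KO saline and 80.9 to 83.1 in WT saline. Of 6 alveolar type I markers 0 passed in KO and 1 fell in WT (3 in KO without KO OVA 2, 4 in WT without WT OVA 1 and 0 in WT without any 1 of 8 arrays). Their summed levels were lower after OVA without overlap, at 112.0 to 168.9 in KO OVA, 111.0 to 163.6 in WT OVA, 183.5 to 204.2 in KO saline and 178.1 to 183.9 in WT saline. The part of any of these cells in the rise of the members was not tested.

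The genes whose profile over the 11 arrays was most like that of Ubd were Saa3, Cxcl9, Ccl8, Retnlb and Ccl24 among 16690 genes compared. The likeness is the root mean square difference of levels centred on each gene's mean, which was 0.66 for Saa3 and 0.94 for Ccl24. Saa3 differed with OVA by 5.92 in KO and 6.33 in WT, and Cxcl9, a chemokine induced by interferon gamma, by 6.22 and 6.21. The mean profile of the other 9 members was most like H2-Q5, Psme1, H2-Q2, Klk1b3 and H2-Q1, with differences of 0.08 to 0.11. These profiles were read from the same arrays, and the likeness largely records a common difference between OVA and saline lungs.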

How the data were processed

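Total RNA of mouse lung was measured on 11 one-colour Agilent arrays. Per the file headers, the deposited scanner files hold for each spot an intensity that Feature Extraction 9.5.1.1 had corrected for background (the submitters' processing notes name 9.1), with probe positions on mm7. The authors' deposited value table holds log2 values and served as an alternative. Its method is not given in the sources used here.

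Intensities were taken as log2 minus the array's 75th percentile, and control and outlier spots were left out. Spots of 1 probe were averaged. Probes (32942) with a signal well above background on 2 or more of the 11 arrays stayed in, and each of 21872 genes was represented by its brightest probe. Names followed RefSeq accessions where these matched (22951 probes). No spot of a member probe was saturated, and no 2 arrays were identical.

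One limma 3.58.1 model (R 4.3.3) with a mean per group was fitted over 11 arrays, two-sided, with Benjamini-Hochberg adjustment over all genes and a threshold of 0.05 (prior degrees of freedom 1.95, residual 7). It was tested on simulated data. With 2 or 3 arrays per group, their number limits precision. The members and lists were chosen with earlier results of these data known, so the tests are not independent of that choice. The difference of the OVA effects was planned as a test of all 10 members and is given for Ubd without one, since its OVA values chose it. Named were all members, up to 3 genes of smallest p per list and comparison that passed, 5 inducers of the members (1 of which is not reported here), and the 5 genes closest in profile to Ubd and to the mean of the other 9. Others are named as seen. All arrays share 1 scan day. Alternatives covered background correction, scaling, filter, probe summary, samples fitted, prior, array weights, blocks for slide and replicate number, the authors' table and each array left out.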

Additional observations from a re-analysis of the deposited data

How the results depend on the processing

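The alternatives were chosen with earlier results of these data known. Of the 9 tested members, the 4 called in KO went to 0 with normexp and without slide 1, to 1 with only the groups compared and with a slide block, to 2 with median scaling, with no filter and with the replicate block, and to 7 with the trended robust prior, array weights and the authors' value table. In WT 8 or 9 rose under 13 of 15 alternative settings, and 0 were called with normexp (offset 50), which called 0 of all genes there, or without slide 1, which called 43. Each array left out gave 0 to 6 in KO and 8 to 9 in WT. Between genotypes after OVA, the trended robust prior called 1 (B2m), and 0 were called with any 1 array left out, as after saline and, over 9 members, for the difference of the OVA effects. H2-D1 in WT turned to -0.27 with the mean of the probes of a gene. When 7 and 5 spots of far brighter local background on WT saline 2 and WT OVA 1 were left out, normexp called 5657 genes in WT. With Ubd, which the filter on all 11 arrays removes, the OVA difference ran from 4.52 to 7.67 in KO and 3.58 to 7.04 in WT. Its OVA effect in KO minus that in WT (0.54) was -0.0877 with normexp without those spots and -0.12 to 1.16 with each array left out. Same-numbered arrays share only a number: 4 of 15 such pairs correlated above 0.1 in their deviations from group means, against 12 of 15 pairs on 1 slide, so the count of 2 under the replicate block is not read as a weaker effect. The causes of these changes were not tested. Signal over background limits Ubd in saline lungs.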
